A study of Arabidopsis thaliana with 8 samples.

Results

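The comparison described here sets Arabidopsis thaliana seedlings of the phyB mutant after red light (phyB red, 2 libraries) against wild type of the Col ecotype kept in darkness (WT dark, 2 libraries). Both groups were chosen by their sample titles, and these 4 libraries are part of the 8 in the series. The other 4 are red-treated wild type (WT red, 2 libraries) and, also red-treated, the double mutant of phyA and phyB (phyAB red, 2 libraries), which enter only to show where phyB red stood. All 8 libraries came from total RNA of seedlings 4.5 days old. The seeds had received 12 h of white light and 21 h of darkness to germinate on medium with 1% sucrose, followed by 4 days of darkness at 22 °C. The red-treated groups then got red light for 1 h (50 µmol per square metre per second), and the dark group stayed in darkness. Light and genotype thus differ together between phyB red and WT dark. None of the 8 libraries is from dark phyB seedlings, so the part of a difference that comes from the light and the part that comes from the genotype cannot be told apart. The labels do not describe the phyA and phyB alleles. Seedlings mix cotyledon, hypocotyl and root cells, and in such samples fewer cells of a type and less RNA per cell cannot be told apart.

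Phytochromes are red and far-red light receptors that are switched to an active form by red light and then move into the nucleus. There they bind the PIFs, a family of basic helix-loop-helix transcription factors that hold the seedling in its dark programme of hypocotyl growth and closed cotyledons, and lead to their breakdown. Phytochrome A (PHYA) is light-labile and abundant in dark-grown seedlings, and phytochrome B (PHYB) is the main light-stable form. HY5, a bZIP factor held down in darkness by the COP1/SPA ubiquitin ligase, acts on the light side and binds promoters of photosynthesis, pigment and flavonoid genes.

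The libraries held 15926547 to 22116924 counted reads over 27416 gene models, of which 20716 had enough reads to be tested. Levels are given in CPM, counts per 1e6 reads of the library total after scaling by the trimmed mean of M-values, for the first and the second library of each group. Changes are log2 fold changes ± SE from a single edgeR quasi-likelihood fit to all 8 libraries, with Benjamini-Hochberg adjustment over all tested genes, and "rose", "fell", "higher" and "lower" in counts of genes mean an adjusted p under 0.05. The 2 libraries of each group lay close together. Their counts differed by a mean chi-square of 1.35 to 1.47 per gene, above the value of 1 that counting error alone gives. The labels do not say that the 2 libraries of a group came from separate cultures, so the p-values rest on the spread between these libraries alone and may reflect technical variation. On the first principal component, which held 59.9% of the variance, phyB red lay at -37.1 and -36.7, WT red at -27.2 and -27.2, phyAB red at 15.0 and 15.1 and WT dark at 49.3 and 48.9. Plastid-encoded gene models took 0.279% and 0.278% of the reads in phyB red against 0.213% and 0.211% in WT dark, and the part of this in the results below was not tested.

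PHYA transcript (AT1G09570, on chromosome 1 from 3095160 to 3100819 in TAIR10.1) was found at 834 and 828 CPM in WT dark and at 703 and 703 for phyB red. It was at 463 and 471 CPM in WT red and at 124 and 123 for phyAB red. The red-treated phyB mutant thus lay 0.24 ± 0.01 below WT dark on the log2 scale and 0.59 ± 0.02 above WT red, and none of these pairs of libraries overlapped. PHYB transcript (AT2G18790, on chromosome 2 from 8139756 to 8144461) was found at 80.7 and 81.4 CPM in WT dark, 96.0 and 95.2 for WT red, 62.3 and 64.3 for phyB red and 52.9 and 50.4 for phyAB red. Both mutants kept reads on PHYB, with a log2 difference of -0.35 ± 0.04 between phyB red and WT dark. Counts per gene do not show which part of the gene was read, so this level is no check of the mutation.

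Between phyB red and WT dark, 5678 genes were higher and 5622 lower in phyB red, which is 27.4% and 27.1% of the genes tested. At least a 2-fold change was reached by 1663 of the higher and 614 of the lower genes. When a change beyond 2-fold was itself tested, 1076 genes were higher and 266 lower. In the direct comparison of phyB red with WT red, 2712 genes (13.1%) were higher and 2896 (14.0%) lower, with at least 2-fold changes in 241 and 219. Of these calls, 48.4% were in the higher direction, and 61.3% (3593 higher, 2266 lower) when libraries were scaled by their totals alone. Wild type itself had 4987 genes (24.1%) higher and 4709 (22.7%) lower in red light than in darkness. That comparison and the one of phyB red with WT dark share the dark libraries, so their values are given side by side only. Whether a function lay at, short of or beyond the light state of wild type was read from the direct comparison of phyB red with WT red. The share of all tested genes called in each direction is the background against which the counts of gene lists are read.

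**Figure D1:**
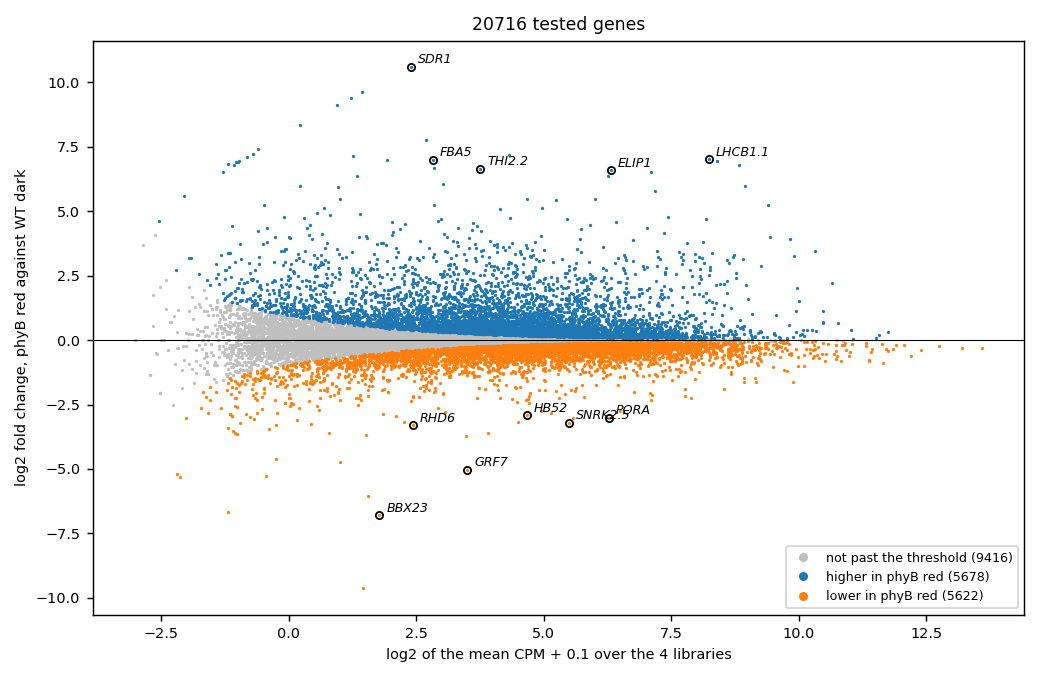
Each of the 20716 tested genes by its mean level over the WT dark and phyB red libraries (x axis, log2 of CPM + 0.1) and its log2 fold change in phyB red against WT dark (y axis), with 5678 genes higher and 5622 lower. Circles mark named genes, with LHCB1.1 at 7.02 and ELIP1 at 6.59 among the rises and GRF7 at -5.04 and PORA at -3.02 among the falls.

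Nuclear genes for the photosynthetic apparatus were far above the dark level in phyB red and slightly above the light level of wild type. All 21 antenna genes, which encode the chlorophyll-binding proteins of the light-harvesting complexes, were higher in phyB red than in WT dark (median log2 fold change 3.26). In the direct comparison with WT red, 19 of the 21 were higher in phyB red and none lower, with a median of 0.34. Summed over the list, the antenna genes gave 2013 and 2013 CPM in WT dark, 13716 and 13750 for WT red, and 17543 and 17577 for phyB red. The order WT dark, WT red, phyB red held for every library in these sums. LHCB1.1 (AT1G29920, chromosome 1, 10474656 to 10475969), a major antenna protein of photosystem II, rose from 4.46 and 4.73 CPM to 599 and 596 CPM, and stood at 473 and 478 CPM in WT red. That is a log2 fold change of 7.02 ± 0.06 against WT dark (adjusted p = 9.8e-90) and 0.33 ± 0.03 against WT red (adjusted p = 6.7e-20). LHCB1.4 (6.96 ± 0.06) and LHCB2.2 (6.78 ± 0.04) were close behind, and LHCB4.3 was the least changed antenna gene (0.29 ± 0.10), with a call that was lost without WT dark library 1 (0.28), WT dark library 2 (0.25) or phyB red library 2 (0.23). LHCB1 and LHCB2 genes are near-identical copies, so reads may have been split between them in a way the sources used here do not state.

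All 24 genes for photosystem subunits and electron carriers rose as well, from 1.49 for PSAE2 to 4.35 for PSAH2 (median 2.84), and all 24 were higher in phyB red than WT red (median 0.26). PSAH2 (AT1G52230, chromosome 1, 19454798 to 19455668), a subunit of photosystem I, was at 11.4 and 13.0 CPM in WT dark, 212 and 216 for WT red and 245 and 251 for phyB red. Its change was 4.35 ± 0.05 against WT dark and 0.21 ± 0.03 against WT red. Of 22 genes for Rubisco and the Calvin cycle, which fixes carbon dioxide, 19 rose and 2 fell (median 1.90), and 17 were higher and 3 lower than in WT red. RCA, the activase of Rubisco, went from 109 and 115 CPM in WT dark to 1709 and 1720 for phyB red, against 1227 and 1220 for WT red (log2 fold change 0.49 ± 0.01 between the red groups). FBA1, a plastid aldolase, rose by 4.58 ± 0.07. Both genes that fell were small changes, CP12-3, a small regulator of the cycle, at -0.81 and the aldolase FBA3 at -0.46.

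Chlorophyll and carotenoid synthesis and photoprotection followed the same order, with single genes going the other way. Of 26 genes for tetrapyrrole and chlorophyll synthesis, 22 rose and 2 fell against WT dark (median 1.51; 1 fell without WT dark library 1, phyB red library 1 or phyB red library 2), and 19 were higher and none lower than in WT red. GUN4, a porphyrin-binding activator of magnesium chelatase, rose from 10.7 and 10.6 CPM to 134 and 129 CPM (3.63 ± 0.06). HEMA1, the glutamyl-tRNA reductase at the first step of the pathway, rose by 1.81 ± 0.04 and was at 249 and 248 CPM in phyB red against 227 and 230 for WT red. PORA, the protochlorophyllide reductase of dark-grown seedlings, fell from 135 and 141 CPM to 16.8 and 17.2 CPM (-3.02 ± 0.06), and lay at 18.2 and 21.2 CPM in WT red. Its relative PORB was at 193 and 190 CPM in WT dark, 133 and 136 for WT red and 186 and 182 for phyB red. PORB was thus higher in phyB red than WT red (0.45 ± 0.04), while its change against WT dark did not pass the test (it passed without WT dark library 2, at -0.10). In photoprotection, 8 of 9 genes rose and 1 fell (median 2.45). The early light-induced proteins ELIP1 and ELIP2 had the largest changes of this list. ELIP1 (AT3G22840, chromosome 3, 8084405 to 8085669) went from 1.65 and 1.61 CPM to 158 and 158 CPM (6.59 ± 0.08), and was 1.21 ± 0.04 above WT red, where it stood at 68.1 and 68.3 CPM. ELIP2 was 1.32 ± 0.03 above WT red. Of 18 genes for plastid isoprenoids and carotenoids, 17 rose (median 0.92), with phytoene synthase (PSY), the entry to carotenoids, at 2.72 ± 0.05, and 10 were higher and 1 lower than in WT red. The count of 10 became 6 without WT red library 1 and without phyB red library 1.

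All 10 regulators of chloroplast development rose, but only part of them passed WT red. The sigma factor SIG5, which directs the plastid RNA polymerase to its promoters, rose from 2.85 and 3.65 CPM to 80.5 and 87.4 CPM (4.70 ± 0.09), and exceeded the 50.7 and 48.4 CPM of WT red by 0.76 ± 0.05. The GATA factor CGA1 went the other way in the direct comparison. It was at 0.250 and 0.430 CPM in WT dark, 6.99 and 6.83 for WT red and 3.06 and 3.78 for phyB red, which is 3.33 ± 0.35 above WT dark and 1.00 ± 0.19 below WT red on the log2 scale. GLK1 and GLK2, factors that switch on photosynthesis genes, rose by 1.06 ± 0.13 and 1.58. Over the list, 4 genes were higher and 1 lower in phyB red than in WT red.

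**Figure D2:**
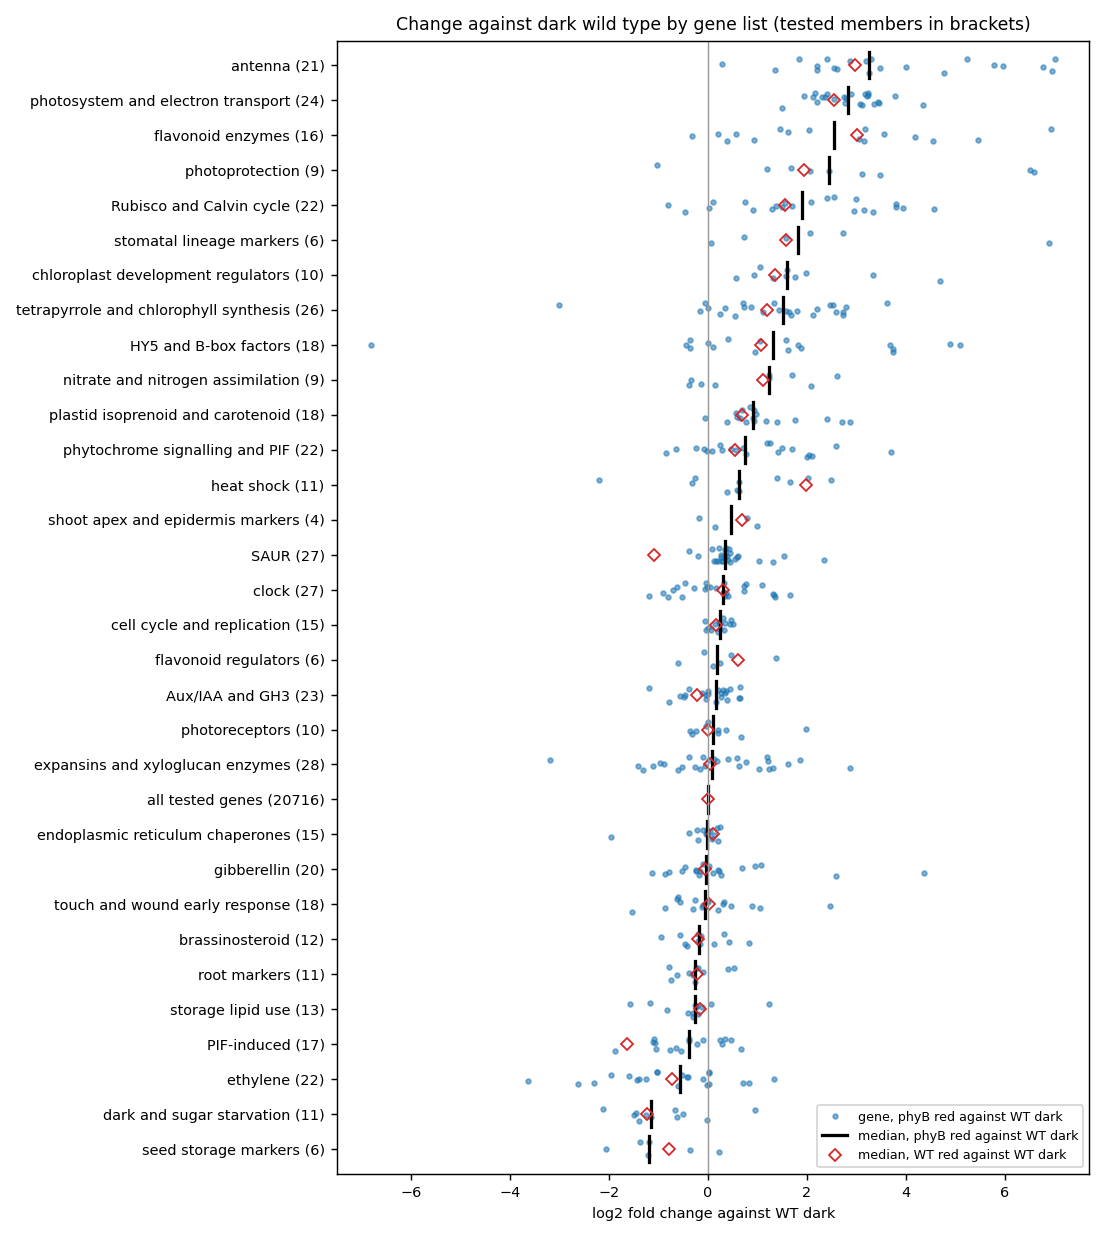
Log2 fold change in phyB red against WT dark (x axis) of each tested member (blue points) of 31 gene lists and the list medians (black bars), with the median in WT red against WT dark as red diamonds and the row of all tested genes showing medians only. The black bar lies to the right of the diamond for the photosynthesis lists and far to the right for SAUR and PIF-induced genes, and to the left of it for heat shock and flavonoid lists.

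The promoters of PSAH2 and ELIP1 are shown because these were the most raised genes of their lists and have matches to motifs that light-regulated plant promoters are known for. The letters are the 250 bases before the annotated gene start in TAIR10.1, from RefSeq, written 5′ to 3′ on the strand of the gene. Capitals mark matches, on either strand, to the G-box (CACGTG), the PBE box (CACATG, or CATGTG on the other strand), the I-box (GATAAG, or CTTATC) and the evening element (AAAATATCT), none of which overlap in the printed windows.
PSAH2 (chr1:19454548-19454797, plus strand): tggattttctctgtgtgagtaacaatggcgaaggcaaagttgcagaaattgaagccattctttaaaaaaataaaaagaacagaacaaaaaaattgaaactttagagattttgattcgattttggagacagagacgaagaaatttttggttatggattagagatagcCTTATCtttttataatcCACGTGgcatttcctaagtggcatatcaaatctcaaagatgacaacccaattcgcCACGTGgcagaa
ELIP1 (chr3:8085670-8085919, minus strand): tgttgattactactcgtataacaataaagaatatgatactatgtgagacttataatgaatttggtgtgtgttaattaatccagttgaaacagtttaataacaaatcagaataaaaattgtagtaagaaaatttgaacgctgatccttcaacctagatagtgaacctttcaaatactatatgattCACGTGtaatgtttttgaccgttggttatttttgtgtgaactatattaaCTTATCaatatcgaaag
PSAH2 had G-box matches starting 67 and 12 bases before the gene start and an I-box match 84 bases before it. ELIP1 had a G-box match 66 bases and an I-box match 17 bases before the start. Over the 20487 tested genes with such a window, 7.38% held a G-box and 12.3% an I-box, and among the 1652 windows of genes at least 2-fold higher in phyB red the shares were 9.08% and 15.1%. Among the 604 windows of genes at least 2-fold lower in phyB red they were 10.1% and 14.1%, so neither motif was particular to the raised genes. A G-box was present in 5 of 21 antenna windows and 4 of 24 photosystem windows, and also in 5 of 15 windows of endoplasmic reticulum chaperone genes. A match is a description of the letters and does not show that a factor binds there.

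Light-signalling factors and flavonoid enzymes rose above the dark level, with small or mixed differences from WT red. Of 18 genes for HY5 and B-box zinc-finger proteins, 12 rose and 3 fell (median 1.31), and 5 were higher and none lower than in WT red. The count of 5 became 3 without WT red library 1. HY5 was at 25.2 and 22.5 CPM in WT dark and 52.5 and 46.9 for phyB red (1.05 ± 0.07), and its relative HYH rose from 1.65 and 1.77 CPM to 23.6 and 22.6 CPM (3.75 ± 0.15). BBX25, a B-box repressor of light responses, was at 1.30 and 0.644 CPM in WT dark, 34.3 and 33.9 for phyB red and 31.8 and 32.9 for WT red, so that the red groups did not differ by the test. BBX23 fell from 252 reads in the 2 WT dark libraries to 2 reads in the 2 phyB red libraries, a depth-adjusted ratio of 0.00809 (95% exact binomial interval 0.00097 to 0.0295, counting error only). BBX28 was at 34.2 and 32.9 CPM in WT dark, 19.2 and 18.2 for WT red and 37.1 and 35.3 for phyB red, so the level in phyB red lay above WT red by 0.94 ± 0.07.

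Flavonoids are ultraviolet-absorbing pigments, and chalcone synthase (CHS) makes their first committed intermediate. Of 16 enzymes of the pathway, 14 rose and none fell against WT dark (median 2.56). In the direct comparison 3 were higher and 5 lower than in WT red (median -0.05). Scaled by library totals, that split was 6 higher and 4 lower, and without phyB red library 1 it was 1 higher and 2 lower. Without WT red library 1 the lower genes were 3, and without WT red library 2 the higher gene was 1. CHS (AT5G13930, chromosome 5, 4488476 to 4490264) was at 3.06 and 2.58 CPM in WT dark, 109 and 112 for WT red and 122 and 127 for phyB red, a change of 5.46 ± 0.08 against WT dark and 0.18 ± 0.04 against WT red. Flavonol synthase FLS1 rose by 4.19 ± 0.27 to 6.61 and 8.54 CPM, beside 10.8 and 9.91 CPM in WT red. The difference between the red groups (-0.43 ± 0.14) was called, but not without WT red library 1 (-0.37) or phyB red library 1 (-0.28). LDOX, the dioxygenase on the way to anthocyanins, had no read in WT dark and 31 reads in phyB red, at least 10.5-fold higher with WT dark set to a floor of 3 counts in the group. LDOX was lower in phyB red (0.811 and 0.809 CPM) than in WT red (2.95 and 1.75 CPM), a call lost without WT red library 1 (-1.11). The glycosyltransferase UGT89C1 was at 19.6 and 18.6 CPM in WT dark, 55.6 and 55.4 for WT red and 35.7 and 36.7 for phyB red, and so fell short of WT red by 0.61 ± 0.06. Of 9 regulators of the pathway 6 were tested. Against WT red none was higher and 2 were lower, beside 13.1% and 14.0% of all tested genes. The median was -0.54, and -0.74 to -0.42 with single libraries left out. PAP1 was at 0.601 and 1.235 CPM in WT dark, 3.94 and 3.82 for WT red and 1.81 and 0.540 for phyB red. Its log2 difference from WT red was -1.84 ± 0.29, and its change against WT dark did not pass the test. Against WT dark 4 regulators rose in wild type and 2 in phyB red, MYB111 by 1.37 ± 0.31 and EGL3 by 0.47 ± 0.20. The call on EGL3 was lost without WT dark library 1 (0.42), WT dark library 2 (0.47) or phyB red library 2 (0.35).

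Photoreceptor genes were called in both directions against WT dark, where 27.4% of all tested genes were higher and 27.1% lower. Most phytochrome signalling genes rose. Among 10 photoreceptor genes 4 rose and 3 fell against WT dark, and 6 were higher and 2 lower than in WT red. The median against WT red was 0.19, and 0.17 to 0.20 with single libraries left out. PHYB, the gene mutated in phyB red, is on this list and was among the lower genes in both comparisons (-0.35 ± 0.04 and -0.59 ± 0.04). The blue-light receptor gene PHOT2 rose from 45.4 and 48.7 CPM to 185 and 185 CPM (1.98 ± 0.04). PHOT1 was at 335 and 351 CPM in WT dark, 219 and 211 for WT red and 398 and 395 for phyB red, and thus lay 0.88 ± 0.03 above WT red. Of 22 genes for phytochrome signalling and PIFs, 16 rose and 2 fell (median 0.75), and 11 were higher and 1 lower than in WT red. RUP2, a WD40 repressor of the ultraviolet-B receptor, rose by 3.69 ± 0.13, and SPA1, a partner of COP1, by 2.04 ± 0.04. RUP1 stood at 44.8 and 45.2 CPM in phyB red against 22.2 and 20.9 for WT red and 11.4 and 10.9 for WT dark (1.06 ± 0.07 between the red groups). Both genes that fell, FHY1 (-0.85 ± 0.07) and FHL (-0.64 ± 0.16), encode the shuttle proteins that carry PHYA into the nucleus. FHY1 lay at 22.3 and 21.4 CPM in phyB red beside 18.9 and 17.9 for WT red (0.24 ± 0.08), a call that was lost without WT red library 2 (0.20) or phyB red library 1 (0.21). FHL lay at 5.43 and 5.67 CPM beside 3.16 and 3.01 CPM (0.85 ± 0.19). PIF7 was the gene of the list called lower than WT red, with 8.48 and 9.71 CPM in phyB red against 12.9 and 11.7 for WT red (-0.43 ± 0.13) and 1.30 and 1.72 for WT dark. That call was lost without WT red library 1 (-0.35) or phyB red library 1 (-0.34).

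**Figure D3:**
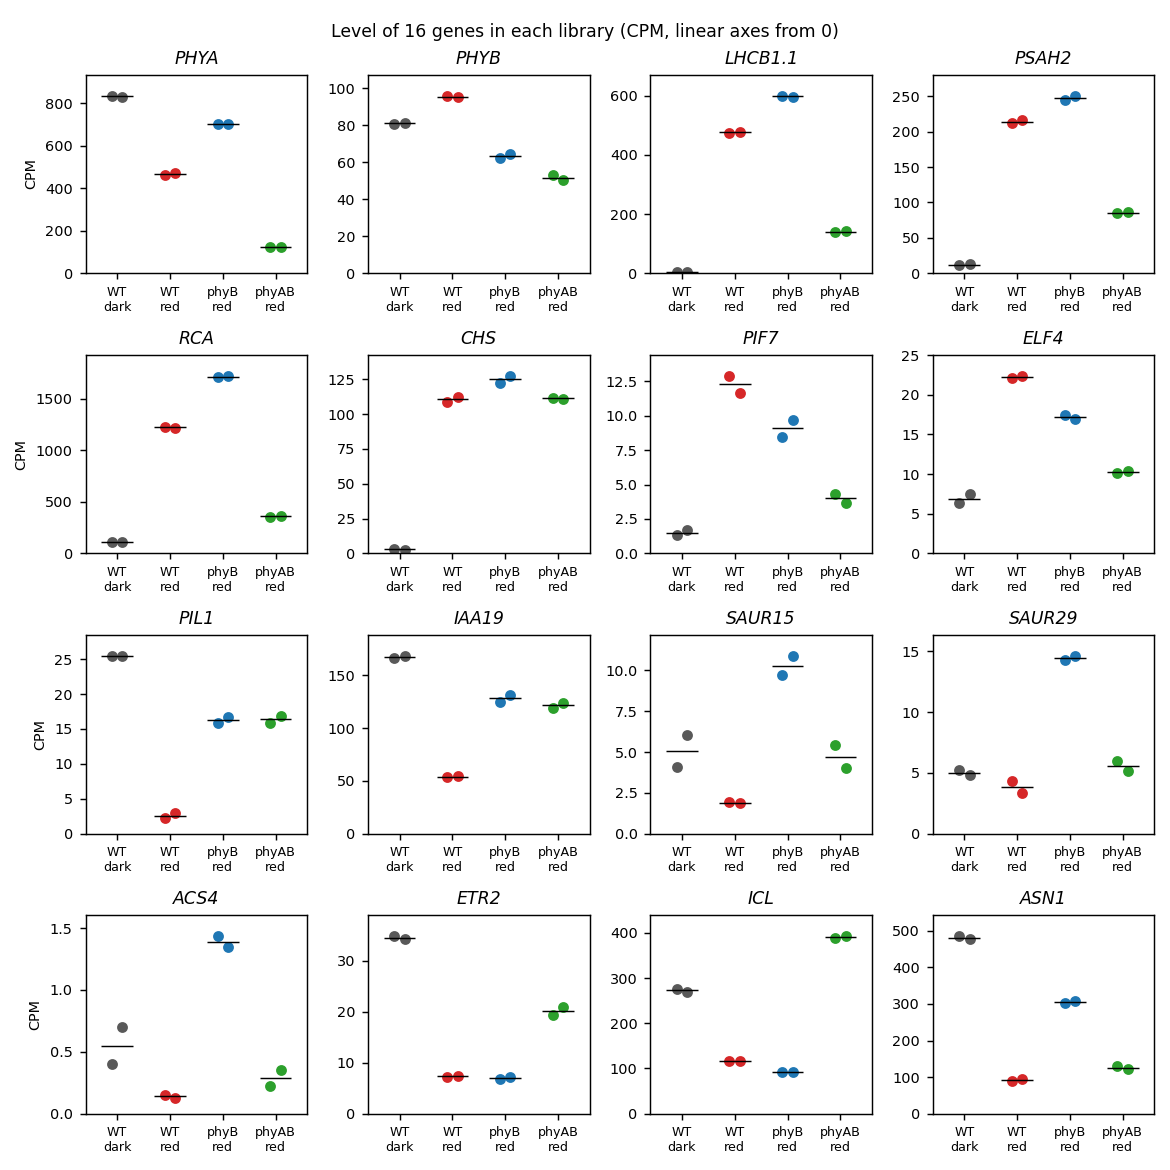
Level of 16 genes in CPM (y axes, linear and starting at 0) in both libraries of WT dark, WT red, phyB red and phyAB red (points, with the group mean as a line). LHCB1.1, PSAH2 and RCA were highest in phyB red, PIL1 and IAA19 lay between the dark and the red wild type there, and SAUR15 and SAUR29 were above both.

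Genes that PIFs are known to induce, many of them growth genes of the dark and shade programmes, lay above the light level of wild type in phyB red. All 17 were higher in phyB red than WT red, with a median log2 difference of 1.25, where 13.1% of all genes were. Against WT dark, 11 of the 17 fell and 4 rose in phyB red (median -0.38). In wild type 16 of the 17 fell and none rose, with a median of -1.63. PIL1, a PIF-related factor, was at 25.4 and 25.5 CPM in WT dark, 2.23 and 2.88 for WT red and 15.9 and 16.7 for phyB red, which is 2.69 ± 0.14 above WT red and 0.64 ± 0.09 below WT dark. The level of PIL1 in phyAB red was 15.9 and 16.9 CPM and overlapped that in phyB red. IAA19 (AT3G15540, chromosome 3, 5264001 to 5265695), an auxin response repressor, was at 166 and 168 CPM in WT dark, 53.3 and 54.6 for WT red and 125 and 132 for phyB red. The homeobox gene ATHB2 was at 51.6 and 52.7 CPM, 15.1 and 15.7 CPM and 23.5 and 26.0 CPM in the same order, and XTH15, a wall-loosening transglucosylase, at 578 and 581 CPM, 49.1 and 49.8 CPM and 160 and 154 CPM. XTH15 thus lay 1.67 ± 0.05 above WT red and 1.88 ± 0.03 below WT dark. The auxin synthesis gene YUC8 and the brassinosteroid-induced factor gene BEE1 went above darkness, by 0.46 ± 0.11 and 0.68 ± 0.07.

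The SAUR genes, a family of small auxin-induced proteins that promote cell expansion, passed the dark level as a group in phyB red while they fell in wild type. Of 27 SAUR genes 19 rose and 1 fell against WT dark (median 0.36), where 2 rose and 22 fell in wild type under the same light (median -1.09). In the direct comparison, 25 of 27 were higher in phyB red than WT red and none lower (median 1.50). Their summed level was 398 and 410 CPM in WT dark, 231 and 228 for WT red and 543 and 554 for phyB red, with no overlap between the groups. In phyAB red the sum was 293 and 286 CPM, and 23 of the 27 genes were lower there than in phyB red. SAUR25, the gene that fell, had 7.21 and 6.82 CPM in WT dark and 5.36 and 5.44 for phyB red (-0.38 ± 0.16, adjusted p = 0.046), and its call was lost when any of the 4 libraries was left out. SAUR15 (AT4G38850, chromosome 4, 18126057 to 18126829) lay at 4.11 and 6.07 CPM in WT dark, 1.92 and 1.88 for WT red and 9.73 and 10.9 for phyB red. Its log2 fold change was 1.03 ± 0.16 against WT dark and 2.44 ± 0.20 against WT red. SAUR29 (AT3G03820, chromosome 3, 976715 to 977474) was at 5.21 and 4.78 CPM in WT dark, 4.35 and 3.32 for WT red and 14.3 and 14.6 for phyB red (1.53 ± 0.14 and 1.90 ± 0.15). SAUR14 rose in wild type too. It was at 8.37 and 8.38 CPM in WT dark, 31.7 and 30.9 for WT red and 44.0 and 42.2 for phyB red (2.36 ± 0.09 against WT dark). SAUR genes sit in clusters of near-identical copies, so their reads may be shared between members.

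**Figure D4:**
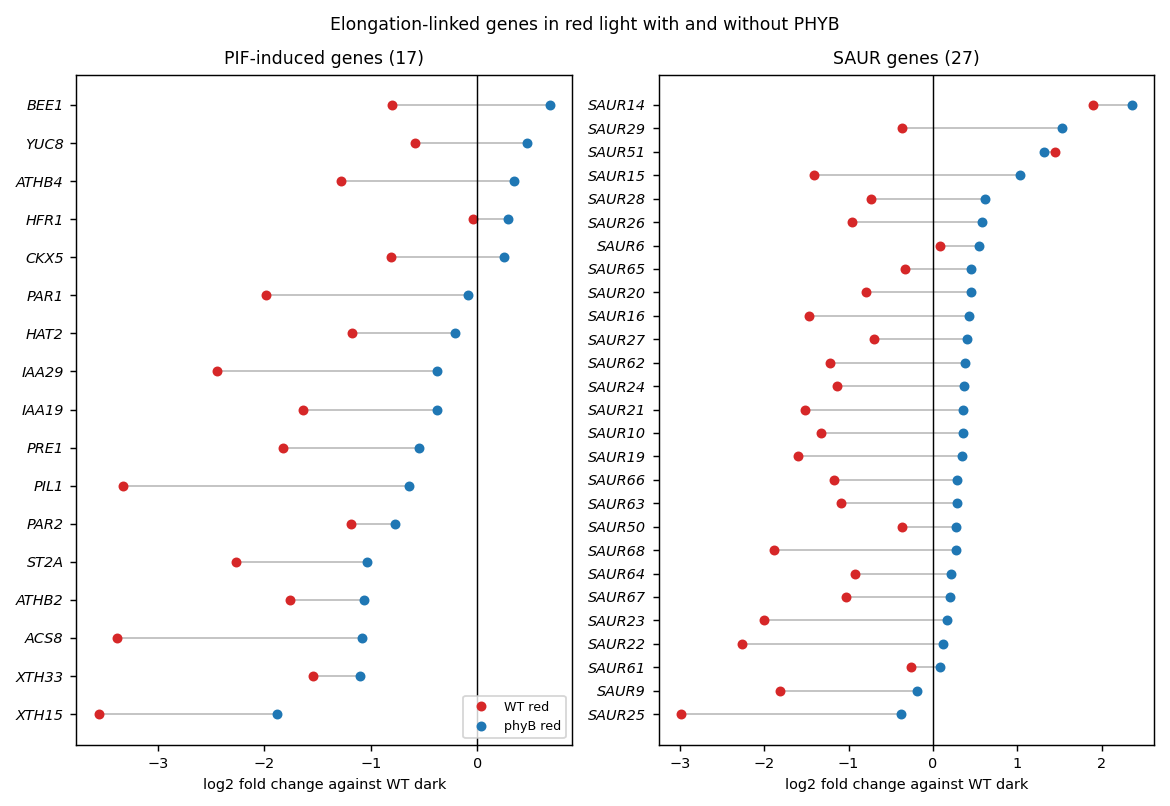
Log2 fold change against WT dark (x axis) of 17 PIF-induced genes and 27 SAUR genes in WT red (red points) and phyB red (blue points), joined by a line per gene. The blue point lies to the right of the red one for all 17 PIF-induced genes and for all SAUR genes but SAUR51.

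The promoters of IAA19 and of 3 SAUR genes are shown because they carry the PBE box, a variant of the G-box that PIFs are known to bind. SAUR14 and SAUR15 are neighbours that start from the same stretch of chromosome 4 in opposite directions, and SAUR15 fell in wild type where SAUR14 rose. The layout and the capitals are as for PSAH2 and ELIP1.
IAA19 (chr3:5263751-5264000, plus strand): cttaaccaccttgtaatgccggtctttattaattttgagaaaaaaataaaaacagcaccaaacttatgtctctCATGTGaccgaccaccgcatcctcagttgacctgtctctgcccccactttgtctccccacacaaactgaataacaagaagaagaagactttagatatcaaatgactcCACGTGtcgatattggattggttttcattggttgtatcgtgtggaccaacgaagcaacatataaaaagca
SAUR14 (chr4:18125560-18125809, minus strand): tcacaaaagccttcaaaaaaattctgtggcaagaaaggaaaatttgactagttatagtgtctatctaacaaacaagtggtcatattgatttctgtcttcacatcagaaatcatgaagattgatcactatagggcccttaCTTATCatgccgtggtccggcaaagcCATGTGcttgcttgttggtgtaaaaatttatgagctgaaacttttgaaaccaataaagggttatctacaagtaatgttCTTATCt
SAUR15 (chr4:18125807-18126056, plus strand): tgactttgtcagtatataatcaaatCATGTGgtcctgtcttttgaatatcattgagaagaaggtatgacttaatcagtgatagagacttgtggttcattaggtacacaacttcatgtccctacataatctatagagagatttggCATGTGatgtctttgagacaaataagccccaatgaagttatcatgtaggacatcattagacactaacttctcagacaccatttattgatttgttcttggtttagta
SAUR29 (chr3:977475-977724, minus strand): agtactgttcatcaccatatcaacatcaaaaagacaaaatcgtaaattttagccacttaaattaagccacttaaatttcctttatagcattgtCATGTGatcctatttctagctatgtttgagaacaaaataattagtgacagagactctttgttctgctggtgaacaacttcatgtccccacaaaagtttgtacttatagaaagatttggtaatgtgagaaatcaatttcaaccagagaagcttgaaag
IAA19 had a PBE box 177 and a G-box 70 bases before the gene start. SAUR15 had PBE boxes 225 and 106 bases before the start, SAUR29 had a PBE box at 157 bases, and SAUR14 had a PBE box at 85 bases and I-boxes at 111 and 7 bases. A PBE box was present in 21 of 27 SAUR windows (77.8%), in 6 of 17 windows of PIF-induced genes and in 11.2% of the windows of all tested genes. It was also in 6 of 12 windows of brassinosteroid genes and 3 of 6 windows of stomatal lineage markers. The copies share ancestry and sequence, so the SAUR windows are not independent of each other. Of genes at least 2-fold lower in phyB red than in WT dark 16.7% held a PBE box, against 11.3% of those at least 2-fold higher.

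Auxin and ethylene genes, whose products set hypocotyl growth and the apical hook, differed from each other. Of all tested genes, 27.4% rose and 27.1% fell against WT dark, and 13.1% were higher and 14.0% lower than in WT red. Of 23 tested Aux/IAA and GH3 genes, which are induced by auxin and dampen its signal, 9 rose and 6 fell against WT dark. The falls were thus close to the share of all tested genes. Against WT red, 18 were higher and 1 lower (median 0.32). IAA2 was at 214 and 218 CPM in WT dark, 124 and 128 for WT red and 292 and 293 for phyB red, and GH3.1 at 9.57 and 7.63 CPM, 1.86 and 1.88 CPM and 8.04 and 7.91 CPM. IAA28, an auxin-repressed member, was the gene lower than in WT red (-0.36 ± 0.08). Of 22 genes for ethylene synthesis and signalling, 15 fell and 3 rose against WT dark (median -0.56), where wild type had 17 lower and 2 higher (median -0.73). In the direct comparison 8 were higher and 4 lower, and the 8 became 5 without phyB red library 2. The 4 became 1 without WT red library 1 and 2 without either phyB red library. The receptor gene ETR2 fell from 34.8 and 34.2 CPM to 6.74 and 7.24 CPM (-2.29 ± 0.10), beside 7.15 and 7.46 CPM in WT red, so that the red groups overlapped. EBF2, an F-box gene induced by ethylene, fell by 1.39 ± 0.04. HLS1, needed for the apical hook, went from 12.3 and 13.2 CPM to 4.55 and 4.81 CPM, and to 2.80 and 3.70 CPM in WT red. The ACC synthase genes of ethylene production split, with ACS5 down by 1.95 ± 0.10, ACS8 down by 1.08 ± 0.18 and ACS4 up from 0.401 and 0.698 CPM to 1.43 and 1.35 CPM (1.34 ± 0.42, and 0.96 without WT dark library 1, where the call was lost). ACS4 and ACS8 were both above WT red, by 3.23 ± 0.57 and 2.31 ± 0.30. ACO4, an ACC oxidase, rose from 153 and 156 CPM to 272 and 277 CPM, with 138 and 142 CPM in WT red.

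Cell wall and growth hormone lists held genes called in both directions. Of 28 expansins and xyloglucan enzymes 13 rose and 11 fell, and 15 were higher and 8 lower than in WT red. EXPA1 rose by 2.87 ± 0.04 to 260 and 264 CPM. EXPA2 was at 9.12 and 7.73 CPM in WT dark, 3.73 and 3.38 for WT red and 1.06 and 0.809 for phyB red, and so lay below WT red too (-1.96 ± 0.28). EXPA16 rose in wild type to 23.8 and 23.4 CPM and was at 4.87 and 4.45 CPM in phyB red, beside 4.76 and 5.58 for WT dark, a log2 difference of -2.35 ± 0.12 between the red groups. Of 12 brassinosteroid genes 8 fell and 4 rose, and 6 were higher and 2 lower than in WT red (1 lower without WT red library 2 or phyB red library 1). BR6OX2, which makes the active hormone, was at 99.0 and 101 CPM in WT dark, 128 and 131 for WT red and 178 and 180 for phyB red. Of 20 gibberellin genes 6 rose and 7 fell, close to the 27.4% and 27.1% of all tested genes, and 6 were higher and 3 lower than in WT red. GA2OX1, which inactivates gibberellin, rose from 0.852 and 0.967 CPM to 19.1 and 18.6 CPM (4.37 ± 0.18), 0.62 ± 0.11 above WT red. GA20OX1, which makes it, rose by 1.08 ± 0.07 and was 0.82 ± 0.07 above WT red. The growth repressor gene GAI was at 45.7 and 49.4 CPM in WT dark, 23.4 and 26.5 for WT red and 41.6 and 42.4 for phyB red.

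**Figure D5:**
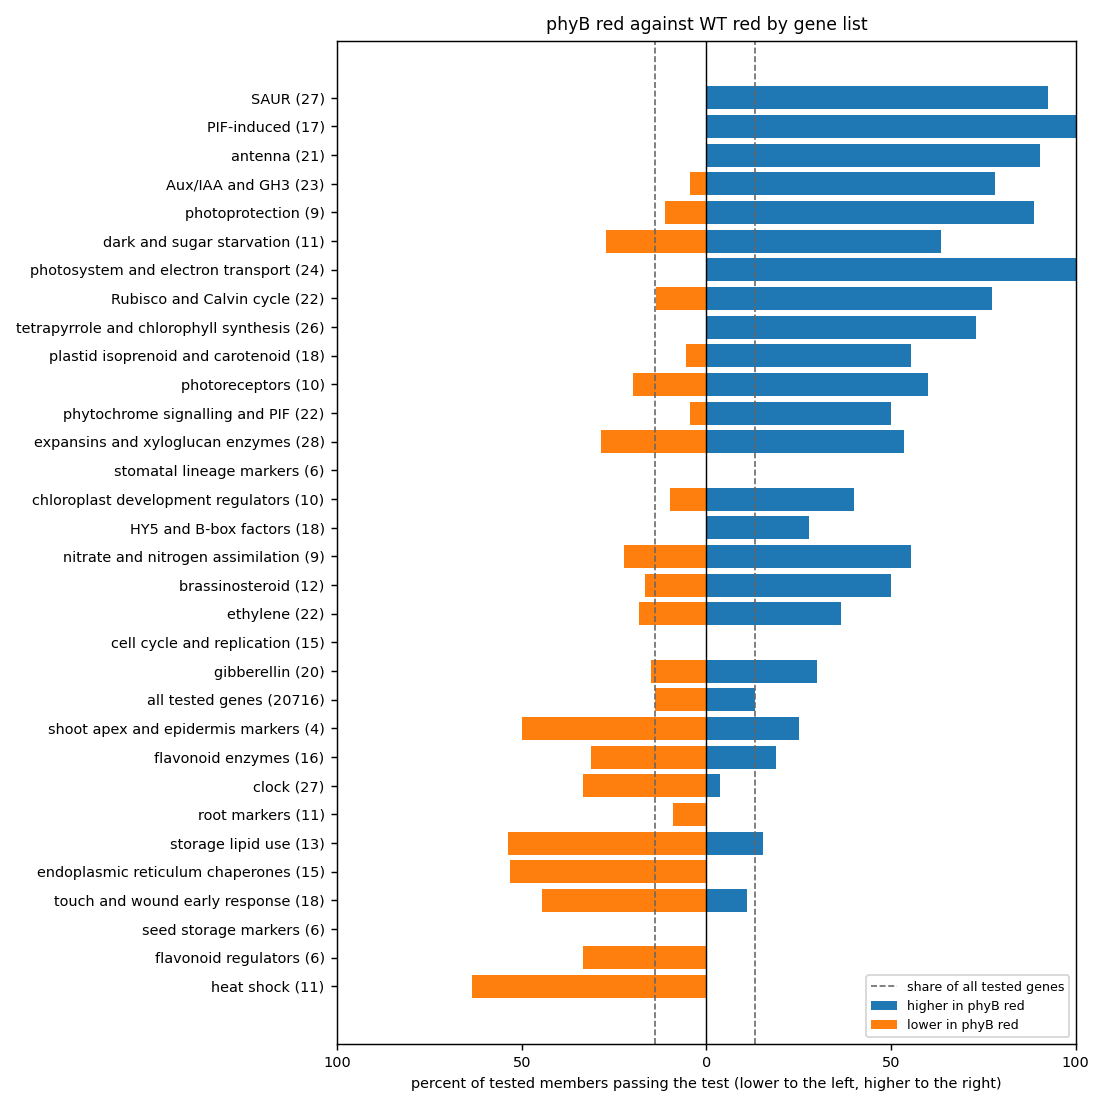
Percent of the tested members of each list that were higher (right, blue) or lower (left, orange) in phyB red than in WT red, with the share of all tested genes as dashed lines at 13.1% and 14.0%. All 17 PIF-induced and all 24 photosystem genes were higher, and the lists with more lower than higher members included heat shock (7 of 11 lower), endoplasmic reticulum chaperones (8 of 15) and storage lipid use (7 of 13).

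Clock genes in phyB red were called in both directions against WT dark, and several lay below WT red. Of 27 clock genes 15 rose and 8 fell against WT dark (median 0.31), beside 27.4% and 27.1% of all tested genes. Wild type had the same counts, with 15 higher and 8 lower in red light than in darkness (median 0.30). In the direct comparison 1 gene was higher and 9 were lower in phyB red than in WT red, beside 13.1% and 14.0% of all tested genes. LNK1, a clock coactivator, rose from 36.7 and 36.0 CPM to 115 and 114 CPM (1.66 ± 0.05), against 123 and 131 CPM in WT red (-0.14 ± 0.04 between the red groups, and -0.10 without WT red library 2, where the call was lost). ELF4, a subunit of the evening complex, was at 6.31 and 7.46 CPM in WT dark, 22.2 and 22.4 for WT red and 17.4 and 17.0 for phyB red (-0.37 ± 0.09 between the red groups). The evening complex gene LUX and the MYB gene RVE2 fell in phyB red to 31.1 and 31.5 CPM and to 78.0 and 76.8 CPM. Both were below WT dark and WT red, LUX by 0.80 ± 0.06 and 0.63 ± 0.06 and RVE2 by 0.90 ± 0.04 and 0.53 ± 0.04. LHY, a morning MYB factor gene, fell by 0.71 ± 0.05, and its partner CCA1 lay at 58.2 and 57.6 CPM in WT dark and 56.3 and 55.3 for phyB red.

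Heat shock, endoplasmic reticulum and stress-response genes often lay below WT red. Of 13 heat shock genes 11 were tested, of which 5 rose and 3 fell against WT dark (median 0.63), beside 27.4% and 27.1% of all tested genes. Wild type had 8 higher and 2 lower in red light than in darkness (median 1.98). In the direct comparison 7 were lower in phyB red than in WT red and none higher (median -0.64), where 14.0% of all tested genes were lower. The count of 7 became 4 without WT red library 1 and without phyB red library 2. HSP70, a cytosolic chaperone, went from 38.5 and 38.9 CPM to 154 and 159 CPM (2.02 ± 0.05), beside 198 and 209 CPM in WT red. HSP90.1 went from 13.2 and 12.7 CPM to 42.5 and 39.8 CPM, beside 69.9 and 68.0 CPM in WT red (-0.75 ± 0.05 between the red groups). Of 15 genes for chaperones of the endoplasmic reticulum, 3 rose and 5 fell against WT dark, beside 27.4% and 27.1% of all tested genes. Against WT red 8 were lower and none higher (median -0.12). The 3 became 1 without phyB red library 2. BIP3, a chaperone induced by unfolded proteins, was at 10.8 and 10.4 CPM in WT dark, 15.7 and 14.7 for WT red and 2.43 and 2.97 for phyB red (-1.95 ± 0.16 and -2.47 ± 0.15). Of 18 genes that respond early to touch and wounding, 5 rose and 7 fell against WT dark, beside 27.4% and 27.1% of all tested genes. In the direct comparison 2 were higher and 8 lower than in WT red, beside 13.1% and 14.0% of all tested genes. The median of that comparison was -0.155, and -0.30 to -0.02 with single libraries left out. The zinc-finger gene ZAT10 was at 23.6 and 23.1 CPM in WT dark, 16.7 and 16.1 for WT red and 7.92 and 8.09 for phyB red. WRKY33, at 42.1 and 46.2 CPM in WT dark and 66.3 and 62.9 for WT red, was at 45.7 and 42.4 for phyB red.

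Reserve use and nitrogen genes separated by function. Of 13 genes for the use of stored lipid 11 fell and 1 rose against WT dark (median -0.26), and 7 were lower and 2 higher than in WT red. Isocitrate lyase (ICL), an enzyme of the glyoxylate cycle, was at 277 and 269 CPM in WT dark, 116 and 116 for WT red and 91.2 and 93.3 for phyB red (-1.56 ± 0.04 and -0.33 ± 0.04). PCK1, at the start of sugar synthesis from lipid, went from 1164 and 1166 CPM to 518 and 520 CPM, beside 609 and 628 CPM in WT red. PMDH2, the peroxisomal malate dehydrogenase, which also serves photorespiration, was the gene that rose (1.24 ± 0.04). Of 11 genes induced by darkness and sugar starvation 9 fell and 1 rose (median -1.14), but 7 were higher and 3 lower than in WT red. SEN1 fell to 131 and 132 CPM from 371 and 371 CPM, beside 124 and 128 CPM in WT red. Asparagine synthetase ASN1, in contrast, was at 485 and 478 CPM in WT dark, 90.2 and 95.0 for WT red and 302 and 308 for phyB red, 1.72 ± 0.04 above WT red. DIN10, a raffinose synthase family gene, was at 1390 and 1401 CPM, 507 and 504 CPM and 987 and 980 CPM in the same order. Of 9 tested genes for nitrate use and nitrogen assimilation 6 rose and 3 fell (median 1.24). The nitrate reductase genes NIA1 and NIA2 rose by 1.24 ± 0.03 and 1.24 ± 0.02, the plastid glutamate synthase gene GLU1 by 2.08 ± 0.03 and ASN2 by 2.62 ± 0.08, and the nitrate transporter gene NRT1.1 fell by 0.38 ± 0.02.

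Outside these lists, the farthest rises at a mean level of 5 CPM or more included genes that were nearly silent in the dark. SDR1 (AT3G61220), annotated as a protein with an NAD(P)-binding fold, had 0 reads in WT dark and 396 in phyB red, at least 134-fold higher with WT dark set to a floor of 3 counts in the group. The gene AT1G26761 went from 2 reads in WT dark to 482 in phyB red, a ratio of 246 (95% exact binomial interval 67.6 to 2033, counting error only). The thionin gene THI2.2 was at 0.0501 and 0.483 CPM in WT dark, 11.1 and 12.0 for WT red and 26.1 and 27.0 for phyB red (1.21 ± 0.11 above WT red). MSRB6, a methionine sulfoxide reductase gene, rose from 1.90 and 1.72 CPM to 146 and 155 CPM, beside 77.4 and 75.5 CPM in WT red. The farthest falls were led by GRF7, a growth-regulating transcription factor gene, from 23.1 and 20.1 CPM to 0.748 and 0.585 CPM (-5.04 ± 0.19). It was at 0.932 and 0.564 CPM in WT red, overlapping phyB red, and at 23.0 and 23.5 for phyAB red. The homeobox gene HB52 (-2.91 ± 0.09) and the kinase gene SNRK2.5 (-3.22 ± 0.07) had the same layout, with 43.6 and 42.8 CPM and 69.6 and 68.4 CPM in phyAB red beside 44.7 and 44.6 CPM and 80.1 and 82.3 for WT dark.

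A few genes differed strongly between phyB red and both wild-type groups. AT3G01345, an uncharacterised gene on chromosome 3 (129138 to 130749), was at 0.250 and 0.483 CPM in WT dark, 0.570 and 0.125 for WT red and 12.7 and 14.9 for phyB red (5.23 ± 0.27 and 5.21 ± 0.28). AT2G01008, the annotated gene at 1025 to 3173 of chromosome 2, stood at 25.1 and 25.9 CPM in phyB red against 3.06 and 3.71 for WT dark and 2.44 and 1.88 for WT red. DML1 (also called ROS1; chromosome 2, 15307907 to 15314807), a DNA glycosylase that removes methylated cytosine, was at 72.7 and 73.8 CPM in phyB red, 9.12 and 7.57 for WT dark, 9.84 and 9.03 for WT red and 31.5 and 31.0 for phyAB red. In these 3 genes every phyB red library lay above every wild-type library. The genes were named for that large difference, so this separation is no separate support for it. On the low side, AT2G16005, a gene with a lipid recognition domain, was at 95.2 and 90.6 CPM in phyB red, 337 and 345 for WT dark and 443 and 463 for WT red (-1.88 ± 0.04 and -2.29 ± 0.03). AT5G37990, a methyltransferase gene, was at 13.4 and 12.1 CPM, 36.6 and 39.4 CPM and 102 and 108 CPM in the same order. HEI10 (chromosome 1, 19963267 to 19966952) and MRD1 (19963047 to 19964712) were both lower, by 2.26 ± 0.10 and 2.26 ± 0.12 against WT dark. These genes lie on opposite strands and overlap, and since it is not given whether counting used the strand, their reads cannot be told apart. Whether any of these differences is present in dark phyB seedlings was not tested.

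Markers of particular organs and cell types were measured beside the lists above. Of 11 root markers 5 were lower and none higher in phyB red than in WT dark, and 1 was lower than in WT red. That gene was PYK10, a root beta-glucosidase, with 11068 and 11121 CPM in phyB red, 13647 and 13653 for WT dark and 18238 and 18231 for WT red. The summed level of the root list was 11167 and 11214 CPM in phyB red against 13762 and 13767 for WT dark and 18339 and 18331 for WT red, almost wholly from PYK10. Of 6 tested stomatal lineage markers 5 rose. SPCH, a factor that starts the lineage, rose from 0.601 and 0.913 CPM to 5.43 and 4.72 CPM (2.73 ± 0.27), and none differed from WT red by the test. EPF2 had no read in WT dark and 30 for phyB red, at least 10.2-fold higher with WT dark at the same floor of 3 counts, and MUTE and EPF1 had too few reads to be tested. Of 6 shoot apex and epidermis markers 4 were tested, of which 2 rose and 1 fell against WT dark. Against WT red 1 of them was higher and 2 were lower. The epidermal gene PDF1 of this list rose from 242 and 242 CPM to 477 and 480 CPM, with 391 and 401 CPM in WT red. Seed storage markers summed to 2.81 and 3.06 CPM in WT dark and 2.06 and 1.71 for phyB red. In the cell cycle list 4 of 15 genes were higher, which became 1 without phyB red library 2 and 2 without WT dark library 2, and none fell or differed from WT red. The share of all tested genes higher in phyB red than in WT dark was 27.4%, close to that of the cell cycle list. The part that organ or cell composition has in the results above was not tested.

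The levels reached in phyB red were set beside those of phyAB red, where PHYA is mutated as well, by testing that difference itself. Of all genes 26.0% were higher and 24.1% lower in phyAB red than in phyB red. All 21 antenna genes (median -1.63) and all 24 photosystem genes (median -1.49) were lower in phyAB red, as were 20 of 26 chlorophyll synthesis genes. The antenna sum was 5766 and 5772 CPM in phyAB red, which is above WT dark and below both other red groups. LHCB1.1 was at 138 and 142 CPM there and RCA at 354 and 363 CPM. PORA, the gene of the chlorophyll list that fell most in phyB red, was at 381 and 380 CPM in phyAB red, above its level in darkness. Flavonoid enzymes did not follow photosynthesis genes, with 9 of 16 higher and 4 lower in phyAB red (median 0.29), and CHS was at 112 and 111 CPM. PIF-induced genes divided into 4 higher and 5 lower, with a median of 0.00. SAUR genes were lower in 23 of 27 cases (median -0.90), with SAUR15 at 5.42 and 4.01 CPM and SAUR29 at 5.96 and 5.18 CPM, overlapping the levels of WT dark. Storage lipid genes were higher in 9 of 13 cases, with ICL at 388 and 392 CPM.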

How the data were processed

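RNA sequencing of seedlings gave 8 libraries in 4 groups of 2. The deposited tables hold raw read counts by gene model, per the file headers. RPKM values deposited by the authors beside them were not used for any test or printed level. Genome build TAIR10 is named in the submitters' processing notes, while aligner, counting tool and strandedness were not given in the sources used here. Symbols, coordinates and promoter letters come from RefSeq's TAIR10.1 annotation, which holds 26719 of the 27416 gene models. Of these models 2868 had 0 reads in every library.

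Counts were analysed with edgeR 4.0.16 in R 4.3.3: filterByExpr with a minimum count of 10 (20716 genes kept), TMM scaling, a single quasi-likelihood fit of 4 group means without a replicate term, and Benjamini-Hochberg adjustment at 0.05. Total counts of 15926547 to 22116924 per library and a common biological coefficient of variation of 1.59% let changes as small as 0.035 (log2) pass in the comparison of phyB red with WT dark. SEs were derived as the size of the fold change (log2) over the root of its F statistic. DESeq2 1.42.0, other scalings, no filter, a 2-fold threshold (edgeR's glmTreat), a replicate block, the 4 libraries alone and leaving out each library were tried as alternatives.

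The gene lists (511 genes, 497 tested) and the comparisons were chosen with earlier results of these data known. Genes were named by rule: PHYA and PHYB, the 12 highest and 12 lowest genes in phyB red against WT dark with non-overlapping groups and a mean of at least 5 CPM, up to 4 members per list with the largest change, and the 6 highest and 6 lowest at least 2-fold changed genes in phyB red against WT red. The text names a part of these. Further list members were named after their values were seen. Intervals and floors cover counting error only.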

Additional observations from a re-analysis of the deposited data

How the results depend on the processing

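Against the counts over all genes reported above, the alternatives stayed within 1.5 times with 2 exceptions. Testing against a 2-fold change, which asks for a larger effect by construction, left 1076 higher and 266 lower genes in phyB red against WT dark, 63 and 56 in phyB red against WT red, 951 and 245 in WT red against WT dark, and 441 and 495 in phyAB red against phyB red. The DESeq2 Wald test gave 1761 higher and 1886 lower genes in phyB red against WT red, and the cause was not tested. Leaving out each library in turn gave 4609 to 5153 higher and 4766 to 5474 lower genes in phyB red against WT dark, and 1992 to 2239 higher and 2209 to 2438 lower genes in phyB red against WT red. The ranges were 3999 to 4494 and 3836 to 4731 in WT red against WT dark, and 4553 to 4852 and 4205 to 4476 in phyAB red against phyB red. A library left alone in its group was assumed to vary like the other groups.

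With the replicate number as a block, 5672 genes were higher and 5600 lower in phyB red against WT dark. The labels do not say that the numbers pair the samples, and deviations of same-numbered libraries correlated at -0.0203 to 0.0107 between groups, so they share only a number. Of the named genes, SAUR25 lost its call with the block.

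Of 1570 log2 fold changes of single named genes under an alternative, 1478 kept their direction and their side of the threshold, 91 lost the call and 1 gained it, and none reversed its direction. Of the 91, 62 were lost in the test against a 2-fold change. The spread between libraries was small, so small changes passed the test, and genes near 1 CPM rest on few reads.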

Other observations

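Gene models encoded in the plastid genome were often higher in phyB red. Of 84 tested, 40 were higher and 1 lower in phyB red than in WT dark (median 0.34 on the log2 scale), beside 27.4% and 27.1% of all tested genes. Against WT red 41 were higher and none lower, beside 13.1% and 14.0% of all tested genes. With single libraries left out, the medians were 0.32 to 0.38 against WT dark and 0.35 to 0.37 against WT red. In WT red against WT dark, 9 were higher and 11 lower. Their summed level was 2136 and 2121 CPM in WT dark, 2175 and 2222 for WT red and 2768 and 2766 for phyB red.

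Of 44 tested mitochondrion-encoded models, 2 were higher and 14 lower in phyB red than in WT dark (median -0.52), where 27.1% of all tested genes were lower. The 14 became 9 without phyB red library 1, 10 without phyB red library 2 and 10 without WT dark library 1, and the 2 became 1 without WT dark library 1 and 0 without phyB red library 2. Against WT red, 2 were lower (1 without WT red library 1) and none higher. Their summed level was 282 and 280 CPM in WT dark and 173 and 180 for phyB red, mostly from 1 model. That model, ATMG00030, was at 181 and 181 CPM in WT dark and 102 and 105 for phyB red, and the sum of the others was 100.3 and 98.5 CPM in WT dark and 70.6 and 74.6 for phyB red. How the library preparation selected RNA is not given in the sources used here, and its part in these values was not tested.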
